A study of Mus musculus with 12 samples.

Results

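The genes described here encode Nogo, the Nogo receptors and the partners with which they form a signalling complex. They are Rtn4, Rtn4r, Rtn4rl1, Rtn4rl2, Lingo1, Omg, Tnfrsf19 and Ngfr. They were selected by gene symbol, taking the row with the highest mean where a symbol had several. They make up 8 of the 23354 symbols in the table, and all 8 passed the filter on low values, as did 14075 symbols in all. Each had 1 row.

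Gene expression was measured by RNA-seq of polyA RNA from the cortex of 12 mice at postnatal day 16, 3 mice in each of 4 groups on a C57BL/6 background. Dnmt1 conditional knockout (CKO) mice were Olig1cre/+;Dnmt1flox/flox, and their littermate controls were Olig1+/+;Dnmt1flox/flox. Dnmt3a CKO mice were Olig1cre/+;Dnmt3aflox/flox, and their littermate controls were Olig1+/+;Dnmt3aflox/flox. All 4 groups therefore carried floxed alleles, and only the CKO mice carried cre, which sits in the Olig1 locus and leaves them with 1 intact copy of Olig1, a transcription factor of the oligodendrocyte lineage. Recombination was directed at oligodendrocytes, whereas whole cortex was sequenced, so a change confined to oligodendrocytes is diluted by RNA from all other cells. The 3 libraries of a group are labelled as biological replicates. Levels are given in FPKM, which counts fragments relative to transcript length and to the size of the library and so allows levels of different genes to be set side by side.

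Nogo is a membrane protein of the reticulon family that stops growing axons and is carried by oligodendrocytes and by many neurons. Its receptor on the axon is anchored to the outer leaflet of the membrane by a lipid and has no part inside the cell, so it signals through LINGO1 together with p75 or TROY, and the signal activates RhoA and collapses the growth cone. Myelin-associated glycoprotein and oligodendrocyte-myelin glycoprotein bind the same receptor, and LINGO1 is also known as a brake on the differentiation of oligodendrocytes.

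Both CKO lines remove an enzyme that methylates cytosine in CpG dinucleotides. The sequence just upstream of a transcription start was therefore examined as context for the genes, although methylation was not measured. RefSeq windows on GRCm38.p6 (250 bases upstream of a start) were found for 6 of the 8 genes, with 10 windows in all. Omg and Rtn4rl1 had no entry. CG was searched as the only motif, and it reads the same on both strands. The windows of these genes held 1 to 38 CG, where the median of 32851 RefSeq windows was 6 and 92.1% of them held at least 1. The 3 sequences below are shown to give the range, those with the most and the fewest CG among the windows of these genes that touch no annotated exon, and that of Mag, the ligand gene whose RNA changed. Capitals mark CG, and each sequence is written 5′ to 3′ on the strand of its gene.

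Rtn4r, chr16:18127392-18127641, plus strand, 38 CG: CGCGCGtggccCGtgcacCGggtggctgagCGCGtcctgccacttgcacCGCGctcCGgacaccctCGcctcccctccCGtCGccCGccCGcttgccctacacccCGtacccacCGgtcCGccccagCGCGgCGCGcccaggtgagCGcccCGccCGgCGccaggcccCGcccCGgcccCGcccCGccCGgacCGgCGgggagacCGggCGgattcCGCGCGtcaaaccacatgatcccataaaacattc
Rtn4, start 3, chr11:29718313-29718562, plus strand, 1 CG: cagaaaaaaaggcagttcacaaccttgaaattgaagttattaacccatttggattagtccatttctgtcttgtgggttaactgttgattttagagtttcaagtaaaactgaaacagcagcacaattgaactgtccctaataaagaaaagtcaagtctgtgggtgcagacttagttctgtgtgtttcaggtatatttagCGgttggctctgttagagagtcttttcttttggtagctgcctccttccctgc
Mag, most upstream start, chr7:30914923-30915172, minus strand, 3 CG: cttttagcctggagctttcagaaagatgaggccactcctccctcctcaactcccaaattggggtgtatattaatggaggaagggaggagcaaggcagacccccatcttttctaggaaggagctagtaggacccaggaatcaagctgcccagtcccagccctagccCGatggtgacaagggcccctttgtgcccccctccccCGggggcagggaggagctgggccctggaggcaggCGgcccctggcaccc

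The Rtn4r window was at the rich end, since 1.88% of all windows held at least as many CG. Starts 1 and 2 of Rtn4 had 12 and 31 CG, and the other 2 starts of Mag had 2 and 3.

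Before the results, the libraries were checked against their labels. Dnmt1 was 9.78 to 10.6 FPKM in its controls and 7.26 to 9.11 in Dnmt1 CKO (limma, adjusted p = 0.286). Dnmt3a was 31.1, 16.9 and 28.7 FPKM in the libraries labelled Dnmt3a Control 1, 2 and 3 and 13.6, 14.2 and 15.4 in Dnmt3a CKO (adjusted p = 0.657) and the library labelled Dnmt3a Control 2 lay near the CKO libraries. Without it the change of Dnmt3a went from -0.78 to -1.05 on the log2 scale (adjusted p = 0.116), and the changes of the 8 genes and of the called genes of their pathway are also given without it, a choice made after the data had been seen for the latter. Olig1 was 42.0 to 50.9 FPKM in Dnmt1 controls and 18.4 to 21.9 in Dnmt1 CKO (adjusted p = 0.00431), and 44.1 to 49.8 and 30.6 to 38.8 in the Dnmt3a line, where it did not pass the test (adjusted p = 0.657). The change of Olig1 in the Dnmt3a line was -0.49, and -0.45 without that library (adjusted p = 0.716). Xist, transcribed from the inactive X chromosome, was 46.2 to 49.4 FPKM in Dnmt1 Control 3, Dnmt3a Control 3 and Dnmt3a CKO 3, 1.69 to 1.85 in the 3 Dnmt1 CKO libraries and under 0.1 in the others. Ddx3y, a gene of the Y chromosome, was 0.0165 to 0.0365 FPKM in the 3 libraries with high Xist and 10.2 to 12.8 FPKM in the other 9, among them the 3 Dnmt1 CKO libraries at 11.1, 10.8 and 10.2. The Dnmt1 controls thus held 1 library with high Xist and the Dnmt1 CKO 0, while each group of the Dnmt3a line held 1, and the part of this in the Dnmt1 comparison was not tested beyond a fit with Xist as a covariate. The summed markers of neurons, astrocytes, oligodendrocytes, microglia and vessels were above 0 in every library, and 0 markers were at 0 in all 12 libraries at once. The markers of choroid plexus, a tissue of the ventricles, summed to 3.21 FPKM in 1 library and 419.3 in another. The spacing of low values gave an approximate depth of 36200000 to 42400000 fragments per library, and counting error at that depth was 1.6 to 2.34% for Omg, Rtn4r and Rtn4rl1.

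The levels of the 8 genes covered a wide range and had the same order with median ratio scaling of the libraries. Summing values per symbol could not change the order, since each gene had 1 row. Rtn4 was the most abundant, at 109.8 to 120.9 FPKM over the 12 libraries. Lingo1, the signalling partner, followed at 79.5 to 95.3 FPKM, and Omg, one of the ligands, at 41.2 to 47.5 FPKM. The receptor Rtn4r was at 24.7 to 31.5 FPKM and Tnfrsf19, which encodes TROY, at 18.1 to 21.0 FPKM. The receptor homologues Rtn4rl1 (13.4 to 16.6 FPKM) and Rtn4rl2 (11.9 to 16.1 FPKM) overlapped, with Rtn4rl1 higher in 9 of 12 libraries. Ngfr, which encodes p75, was last at 0.394 to 1.66 FPKM. Apart from Rtn4rl1 and Rtn4rl2, no neighbours in this order had overlapping ranges. Within each library Rtn4rl2 exceeded Ngfr 8.9 to 31.1 times.

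**Figure D1:**
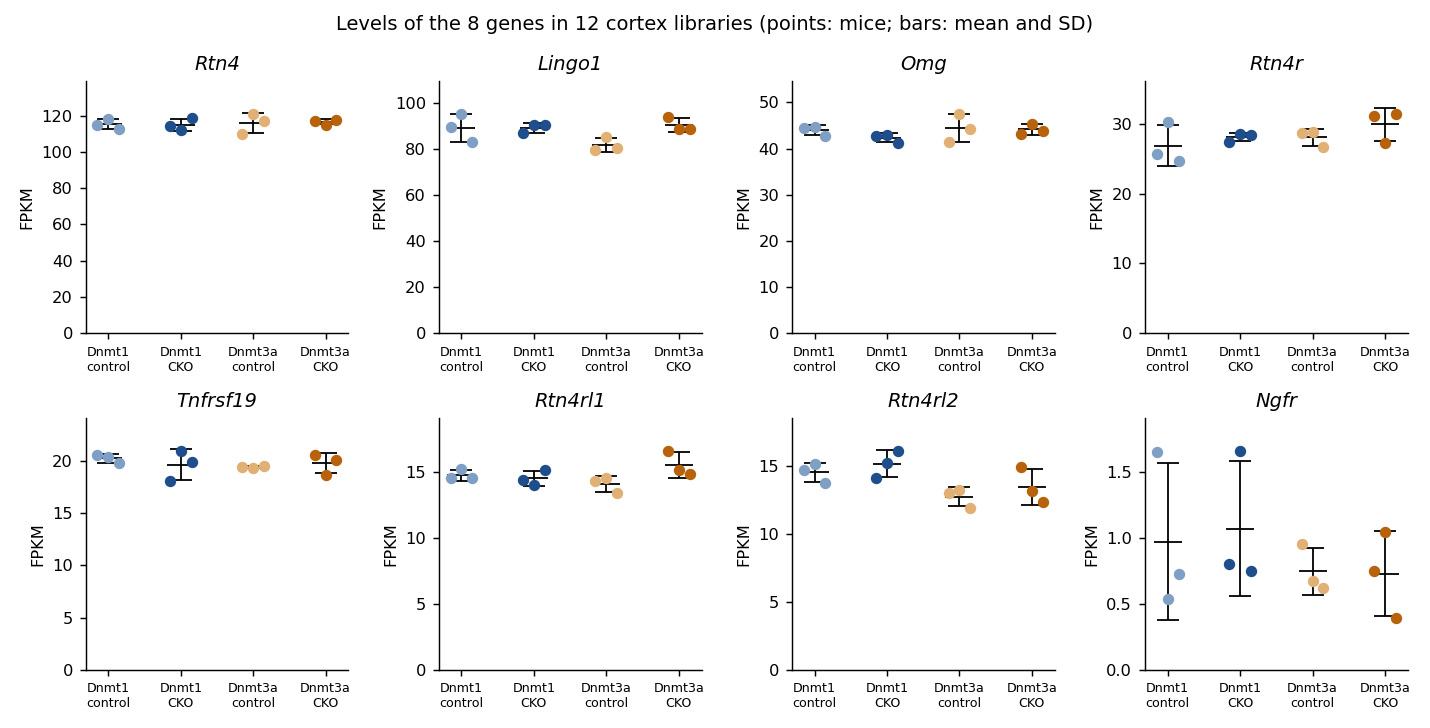
FPKM (vertical axes, each starting at 0) of the 8 genes in the 4 groups, ordered by mean level. Points are mice and black bars are the mean and SD of 3, and in all panels but that of Ngfr the 12 libraries lie close together.

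Most of these genes also varied little from mouse to mouse. The coefficient of variation over all 12 libraries was 2.71% for Rtn4, a smaller value than that of 98.3% of the rows tested. It was 3.94% for Omg, 4.3% for Tnfrsf19, 5.27% for Rtn4rl1, 5.58% for Lingo1, 7.22% for Rtn4r and 9.27% for Rtn4rl2, and the median of all rows was 7.08%. Ngfr stood apart at 45.5%, and 2.24% of all rows varied more. The mean level was above that of Rtn4 in 3.34% of rows and above that of Ngfr in 92.9%. Spread was not compared among rows of like level.

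In neither line did a gene of the complex pass the test. In the Dnmt1 line, 0 of 8 genes were called at 10% FDR, where 3.15% of the 14115 rows tested were called (444 rows, 120 higher and 324 lower in CKO). The count at an unadjusted p under 0.05 was also 0 of 8, where 15% of all rows were under it. In the Dnmt3a line 0 of 8 were called, against 0.0142% of all rows (2 rows), and 1 gene, Lingo1, had an unadjusted p under 0.05, as did 7.35% of all rows. The test of whether the 2 lines differed in their response, an interaction over all 12 libraries, called 0 of 8 genes and 2.13% of all rows, and 1 gene, Rtn4rl1, had an unadjusted p under 0.05, where 10.6% of all rows had one. The values of CKO and control mice overlapped for all 8 genes in the Dnmt1 line, where 20.8% of rows had no overlap. They did not overlap for 2 of 8 in the Dnmt3a line, where 12.8% of rows had no overlap.

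The intervals were narrow. For the 7 genes other than Ngfr, the 95% intervals of the change ran from 0.875 to 1.2-fold in the Dnmt1 line and from 0.91 to 1.21-fold in the Dnmt3a line, and those of the difference between the lines from 0.8 to 1.16-fold. All changes below are differences of log2(FPKM + 0.1), CKO minus control, from limma with Benjamini-Hochberg adjustment over all rows.

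**Figure D2:**
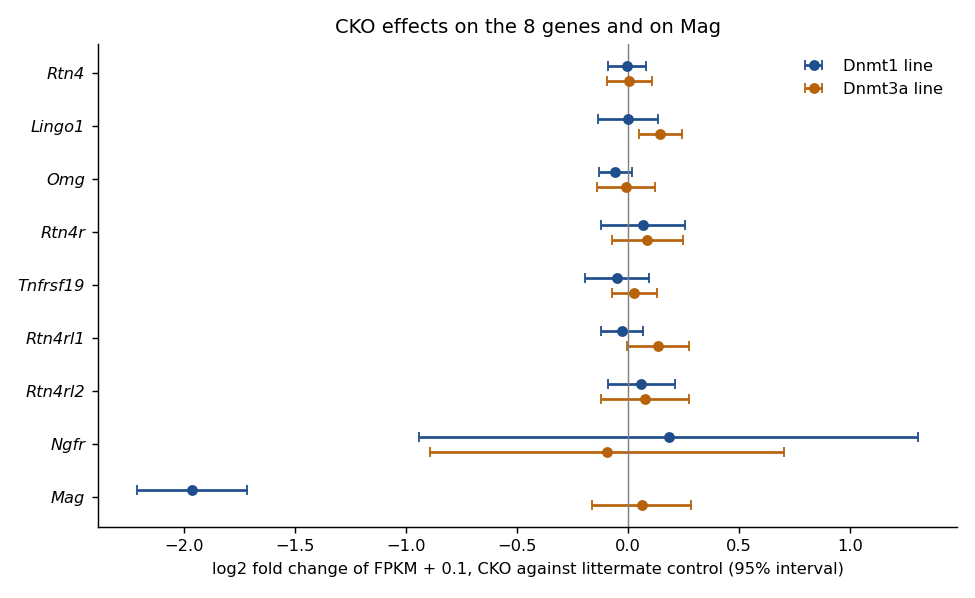
Log2 fold change of FPKM + 0.1 in CKO against littermate controls (horizontal axis) for the 8 genes and Mag, with points for the estimate, bars for the 95% interval, and 3 mice a group. The intervals of all genes but Lingo1 in the Dnmt3a line and Mag in the Dnmt1 line hold 0, and that of Ngfr is the widest among the 8.

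Rtn4, the ligand, is annotated on chr11:29692947-29744331 (plus strand, GRCm38) with 10 transcripts, and the table holds 1 value for them, so the long form Nogo-A and the short forms could not be separated. In the Dnmt1 line it was 114.9, 118.0 and 112.8 FPKM in controls and 114.3, 112.1 and 118.6 FPKM in CKO. The Dnmt3a line had 109.8, 120.9 and 117.2 FPKM in controls and 116.9, 114.9 and 117.7 FPKM in CKO. The groups overlapped in both lines, and the changes were -0.0032 (SE 0.0346, adjusted p = 0.984) and 0.0076 (SE 0.0418, adjusted p = 0.982). In the Dnmt1 line its interval reached from 0.941 to 1.06-fold. Of its 6991 exonic bases, 1284 are shared with Eml6 on the opposite strand, and the sources do not say that strand was used in counting. Eml6 was at 5.0 to 7.52 FPKM.

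Omg encodes oligodendrocyte-myelin glycoprotein, a ligand of the Nogo receptor that neurons also make. It is annotated on chr11:79500982-79504084, on the minus strand inside an intron of Nf1 (chr11:79475884-79535602, intron 36 of a transcript with 58 exons). Omg was 44.4, 44.7 and 42.7 FPKM in Dnmt1 controls and 42.8, 42.9 and 41.2 FPKM in Dnmt1 CKO. Of the CKO values 2 lay just above the lowest control and 1 below it, and the change of -0.055 (SE 0.0304, 95% interval -0.13 to 0.019, adjusted p = 0.476) did not pass the test. Values in the Dnmt3a line were 41.5, 47.5 and 44.2 FPKM in controls and 43.2, 45.4 and 43.8 FPKM in CKO, all within the range of the controls. Nf1, whose unspliced RNA would give reads over Omg in a library without strand, was 8.06 to 9.84 FPKM, and Omg was 4.22 to 5.19 times as high as Nf1. Nf1 had values of -0.088 (adjusted p = 0.343) and -0.10 (adjusted p = 0.66) for the change in the Dnmt1 and the Dnmt3a line. Evi2a, in the same intron, had -0.20 (adjusted p = 0.522) and 0.080 (adjusted p = 0.879), and Evi2b, at 0.12 to 0.212 FPKM, was under the filter.

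Mag encodes another ligand of the Nogo receptor, a membrane protein of the myelin sheath on the side of the axon. It was 77.4, 73.1 and 70.5 FPKM in Dnmt1 controls and 16.3, 21.5 and 19.0 FPKM in Dnmt1 CKO, with no overlap. It fell by 1.96 on the log2 scale (SE 0.101, adjusted p = 0.00114). Mag in the Dnmt3a line was 91.0, 95 and 78.7 FPKM in controls and 86.3, 100.9 and 89.1 FPKM in CKO, and the groups overlapped. The change there was 0.062, and 0.12 without the library labelled Dnmt3a Control 2 (adjusted p = 0.827). The difference of the change between the lines was -2.02 (SE 0.142, adjusted p = 1.52e-05), and -2.08 without that library (adjusted p = 8.9e-05). The Mag to Omg ratio was accordingly 1.75, 1.64 and 1.65 in Dnmt1 controls and 0.381, 0.501 and 0.462 in Dnmt1 CKO, whereas the Omg to Rtn4 ratio stayed between 0.347 and 0.395 in all 12 libraries.

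**Figure D3:**
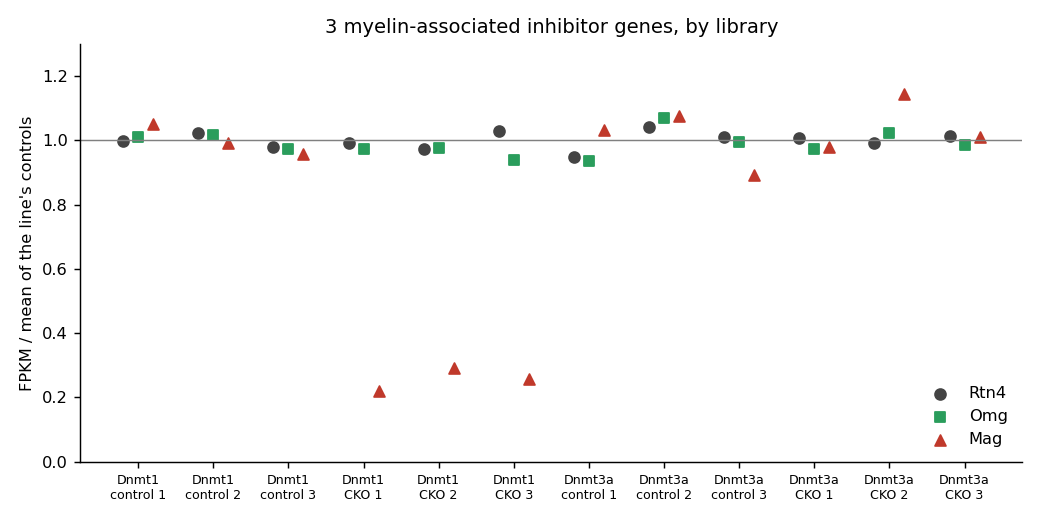
FPKM of Rtn4, Omg and Mag in each library divided by the mean of the 3 controls of the same line (vertical axis, from 0). Mag lies far below 1 in the 3 Dnmt1 CKO libraries, and Rtn4 and Omg lie near 1 in all 12.

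Mag moved with the other genes of myelin. All 10 markers of myelinating oligodendrocytes fell in the Dnmt1 line (median change -1.98), where 3.15% of all rows were called. Their summed level was 1879.9 to 2193.6 FPKM in controls and 559.3 to 649.8 FPKM in CKO. Of the 8 markers of oligodendrocyte progenitors 6 fell, with a sum of 124.6 to 135.5 FPKM in controls and 83.5 to 90.1 FPKM in CKO. Single markers of this list changed by -0.81 (Sox10) to -0.00062 (Cspg4), with -0.30 for Pdgfra. Cspg4 and Lhfpl3 (-0.21) were not called. Gpr17 was the most abundant of the list and so weighed most in its sum. The authors used Olig2 to mark oligodendrocytes, so the list is not confined to progenitors. Of 8 neuron markers 0 were called, and their sums overlapped (1766.0 to 1914.7 and 1834.6 to 1885.1 FPKM). Of 8 astrocyte markers 1 rose (Gfap), of 8 microglia markers 2 rose (C1qa and C1qb), of 8 vessel markers 1 fell (Rgs5), and of 5 choroid plexus markers 0 were called. The sums of microglia markers did not overlap (104.5 to 109.9 FPKM in controls, 115.6 to 121.8 in CKO), nor did those of vessel markers (101.3 to 112.0 and 89.5 to 96.8 FPKM). Single markers differed within both lists, from -0.18 (Itgam) to 0.42 (C1qb) for microglia and from -0.36 (Rgs5) to 0.066 (Ly6c1) for vessels. Those of astrocytes ran from -0.28 (Aqp4, below all controls but not called) to 0.45 (Gfap). C1qb and Rgs5 were the most abundant of their lists and so weighed most in the sums. The sums of astrocyte markers (871.3 to 902.8 and 860.2 to 880.2 FPKM) and of choroid plexus markers (118.9 to 274.9 and 84.5 to 247.9 FPKM) overlapped. The part of these cells in the changes of the Dnmt1 line was not tested. In whole cortex, fewer cells of a type and less RNA per cell cannot be told apart. No marker of these lists was called in the Dnmt3a line, with or without Dnmt3a Control 2. With that library, 0.0142% of all rows were called there.

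Rtn4r encodes the Nogo receptor itself and is annotated on chr16:18127642-18152408 (plus strand). It was 25.8, 30.3 and 24.7 FPKM in Dnmt1 controls and 27.5, 28.6 and 28.4 FPKM in Dnmt1 CKO, the CKO values lying inside the range of the controls. The change was 0.069 (SE 0.077, adjusted p = 0.745). In the Dnmt3a line the values were 28.8, 28.9 and 26.7 FPKM in controls and 31.2, 27.3 and 31.5 FPKM in CKO. Here 2 CKO mice lay above all controls and 1 did not, and the change was 0.089 (SE 0.0655, adjusted p = 0.78).

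Rtn4rl2 (chr2:84871924-84886710, minus strand) encodes a homologue of the Nogo receptor that binds MAG. Its values were 14.7, 15.1 and 13.7 FPKM in Dnmt1 controls and 14.1, 15.2 and 16.1 FPKM in Dnmt1 CKO. They were 13.0, 13.2 and 11.9 FPKM in Dnmt3a controls and 14.9, 13.1 and 12.3 FPKM in Dnmt3a CKO. The groups overlapped in both lines, with changes of 0.061 (SE 0.0615, adjusted p = 0.712) and 0.078 (SE 0.0815, adjusted p = 0.829).

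Rtn4rl1 (chr11:75193783-75267769, plus strand) encodes the other homologue, a receptor for proteoglycans. In the Dnmt1 line it was 14.5, 15.2 and 14.5 FPKM in controls and 14.4, 14 and 15.1 FPKM in CKO, with overlap and a change of -0.026 (SE 0.0386, adjusted p = 0.823). In the Dnmt3a line it was 14.3, 14.5 and 13.4 FPKM in controls and 16.6, 15.1 and 14.8 FPKM in CKO. All 3 CKO values lay above all controls, and the mean change of 0.14 on the log2 scale (SE 0.0568) did not pass the test (unadjusted p = 0.052, adjusted p = 0.657). The difference between the lines was -0.16 (SE 0.0723, unadjusted p = 0.0448, adjusted p = 0.457).

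The sum of the 3 receptor genes ranged from 52.0 to 62.7 FPKM, of which Rtn4r gave 46.7 to 53.7%, Rtn4rl1 24.3 to 27.4% and Rtn4rl2 20.9 to 27.1%. The share of Rtn4rl2 was 24.9 to 27.1% in the 6 libraries of the Dnmt1 line and 20.9 to 23.8% in the 6 of the Dnmt3a line. That of Rtn4r was 46.7 to 50% and 49.2 to 53.7%. The FPKM values of Rtn4rl2 itself overlapped between the lines, at 13.7 to 16.1 and 11.9 to 14.9. The lines were not compared by a test, and how often other rows or shares separate them was not counted.

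Lingo1 (chr9:56618475-56796468, minus strand) was the other gene whose groups separated in the Dnmt3a line. It was 79.5, 85.3 and 80.3 FPKM in controls and 93.8, 88.7 and 88.9 FPKM in CKO, and all 3 CKO values were above all controls. The change was 0.15 (SE 0.0401, 95% interval 1.03 to 1.19-fold, unadjusted p = 0.0105), and it did not pass the adjustment (adjusted p = 0.657). At this spread a change of 0.55 on the log2 scale would have given Lingo1 the largest unadjusted p-value called in this line. A smaller change might also have been called. Without the library labelled Dnmt3a Control 2, the changes were 0.18 for Lingo1 and 0.16 for Rtn4rl1 (adjusted p = 0.72 for both). Without that library the changes of the other genes were 0.038 for Rtn4, 0.043 for Omg, 0.11 for Rtn4r, 0.11 for Rtn4rl2, 0.026 for Tnfrsf19 and -0.15 for Ngfr, with adjusted p from 0.8 to 0.95, and 0 of 8 genes were called. The summed levels of neuron markers (1771.3 to 1841.9 FPKM in controls, 1886.4 to 1920.8 in CKO) and of astrocyte markers (876.9 to 903.4 in controls, 944.4 to 1012.1 in CKO) also lay higher in all Dnmt3a CKO libraries. Single neuron markers changed by -0.071 (Gad2) to 0.16 (Slc17a7) and astrocyte markers by 0.065 (Slc1a3) to 0.31 (Fgfr3), with 0 called. The part of these cells in the values of Lingo1 and Rtn4rl1 was not tested.

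In the Dnmt1 line Lingo1 was 89.4, 95.3 and 83.1 FPKM in controls and 86.8, 90.6 and 90.3 FPKM in CKO. The CKO values lay inside the range of the controls and the change was 0.0015 (SE 0.0542, adjusted p = 0.998). The difference between the lines was -0.15 (SE 0.0713, unadjusted p = 0.0654, adjusted p = 0.515). The Dnmt3a controls were the lowest of the 4 groups for Lingo1 (81.7 ± 3.13 FPKM, SD, n = 3, against 89.3 ± 6.07 in Dnmt1 controls), and Dnmt3a CKO (90.5 ± 2.87) lay close to both Dnmt1 groups. Lingo1 exceeded its homologue Lingo2 11.2 to 13.4 times in every library, and Lingo4 was under the filter.

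Tnfrsf19 (chr14:60963875-61046490, minus strand) encodes TROY, a receptor of the TNF receptor superfamily that can stand in for p75. It was 20.6, 20.4 and 19.8 FPKM in Dnmt1 controls and 18.1, 21.0 and 19.9 FPKM in Dnmt1 CKO. It was 19.4, 19.3 and 19.5 FPKM in Dnmt3a controls and 20.6, 18.7 and 20.1 FPKM in Dnmt3a CKO. The CKO values spread to both sides of the controls in each line, and the changes were -0.049 (SE 0.0584, adjusted p = 0.771) and 0.030 (SE 0.041, adjusted p = 0.875).

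Ngfr (chr11:95568818-95587735, minus strand) encodes p75, a receptor of neurotrophins that marks cholinergic neurons of the basal forebrain. It was 1.65, 0.537 and 0.722 FPKM in Dnmt1 controls and 0.802, 1.66 and 0.747 FPKM in Dnmt1 CKO. In each group 1 library was high, and the others were near each other. The Dnmt3a line had 0.949, 0.674 and 0.618 FPKM in controls and 0.751, 1.04 and 0.394 FPKM in CKO, where the CKO mice held both the highest and the lowest value. The changes were 0.18 (SE 0.458, adjusted p = 0.908) and -0.094 (SE 0.326, adjusted p = 0.963), and the interval in the Dnmt1 line, 0.521 to 2.48-fold, left a large change undetectable. At the estimated depth these levels stood for 51 to 224 fragments, whose counting error is 14% at the lowest and 6.68% at the highest library.

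Among 14114 other rows, the one whose centred profile over the 12 libraries was nearest to that of Ngfr was Slc18a3, which encodes the vesicular acetylcholine transporter. Its mean absolute difference from Ngfr was 0.175 on the log2 scale, where the median of all rows was 0.4. Other genes of cholinergic forebrain neurons were then examined, a list chosen after these values had been seen. Relative to their means over the 12 libraries, Ngfr was at 1.88 and Slc18a3 at 1.83 in Dnmt1 Control 1, and at 1.89 and 1.54 in Dnmt1 CKO 2. Both lay under 1 in Dnmt3a CKO 3, at 0.449 and 0.634. Lhx8, a transcription factor of these neurons, was at 2.44, 2.15 and 0.194 in the same libraries. Chat, which makes acetylcholine, was nearer to its mean, at 1.41, 1.38 and 0.859, and it ranked 1290 in likeness. The genes parted in Dnmt3a CKO 2, where Ngfr was at 1.18 and Chat, Slc5a7 and Isl1 were at 1.49, 1.59 and 1.64. They parted also in Dnmt1 CKO 1, where Ngfr was at 0.913, Lhx8 at 0.24 and Isl1 at 0.402. Over the 12 libraries, Pearson's r of log2 values with Ngfr was 0.884 for Slc18a3, 0.835 for Lhx8, 0.765 for Isl1, 0.712 for Slc5a7 and 0.623 for Chat, all from the same dissections and libraries. For the striatal genes Ppp1r1b and Drd1a it was 0.597 and 0.522. Slc18a3 had been picked by its likeness to Ngfr, so its high r was fixed in advance, and r was not computed over all rows. By the mean absolute difference the next nearest rows were Tcfl5 (0.212) and Dgkk (0.222), while Slc5a7 ranked 774 and Isl1 1945. The part of cholinergic neurons in the values of Ngfr was not tested.

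**Figure D4:**
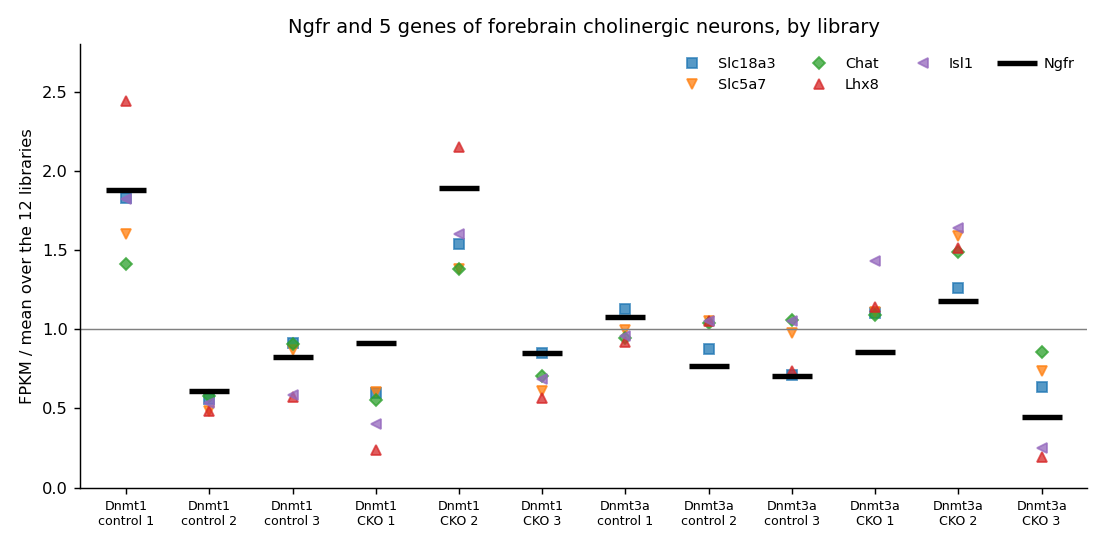
FPKM of Ngfr (black bars) and of 5 genes of forebrain cholinergic neurons (symbols) in each library, divided by the mean of each gene over the 12 libraries. Ngfr is highest in Dnmt1 Control 1 and Dnmt1 CKO 2, at 1.88 and 1.89, and lowest in Dnmt3a CKO 3, at 0.449.

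The nearest profiles of the other 7 genes were sought by the same measure. They were Atp6v1d for Rtn4 (mean absolute difference 0.0178), Slc25a46 for Omg (0.0181), Camk2g for Rtn4r (0.0318), Extl3 for Rtn4rl1 (0.0321), Zfp282 for Rtn4rl2 (0.0461), Syt13 for Lingo1 (0.0276) and Mrpl43 for Tnfrsf19 (0.0258), each over 12 libraries.

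The rest of the pathway was followed in a list of 37 genes that holds Mag, further receptors, other reticulons and LINGO proteins, the RhoA arm, neurotrophins and further ligands, of which 34 were tested. In the Dnmt1 line the median change of the 34 was -0.036, where the median of all rows was -0.020. Of the 34 genes 3 fell and 0 rose, where 3.15% of all rows were called. The 3 genes were Mag, Wnk1 and Bcan. Wnk1, a kinase that binds LINGO1, went from 14.9, 15.5 and 15.4 FPKM to 12.4, 13.1 and 12.9 FPKM, a fall by 0.25 on the log2 scale (SE 0.0345, adjusted p = 0.0269). Bcan, brevican, a proteoglycan of the matrix around neurons that glia secrete, went from 68.6, 65.1 and 69.2 FPKM to 53.9, 57.3 and 53.3 FPKM, a fall by 0.30 (SE 0.0405, adjusted p = 0.026). For both genes the CKO values lay below all controls. Without Dnmt1 CKO replicate 1, or without replicate 3, only 1 gene of the list was called.

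Of the 34 genes 0 were called in the Dnmt3a line, where 0.0142% of all rows were called. Their median change was 0.021, and that of all rows was 0.0067. Bcan was 63.7, 62.8 and 63.0 FPKM in controls and 68.3, 77.2 and 69.9 FPKM in CKO, above all controls without passing the test (0.18, adjusted p = 0.657). Without the library labelled Dnmt3a Control 2 the change of Bcan was also 0.18 (adjusted p = 0.716), and 0 of the 34 genes were called. The difference between the lines was called for the same 3 genes, where 2.13% of all rows were called. It was -0.24 for Wnk1 (adjusted p = 0.0352) and -0.48 for Bcan (adjusted p = 0.00381). Without that library 3 genes were called, with -0.26 for Wnk1 (adjusted p = 0.0566) and -0.48 for Bcan (adjusted p = 0.0134). None of RhoA itself (Rhoa), its kinases Rock1 and Rock2, the actin regulator Cfl1 or the collapsin response mediator Dpysl2 was called in either line. Bdnf, a neurotrophin, was 5.45 to 6.26 FPKM in Dnmt1 controls and 4.77 to 5.28 FPKM in Dnmt1 CKO (-0.23, adjusted p = 0.251). The related reticulons Rtn1, at 468.7 to 544.2 FPKM, and Rtn3, at 321.0 to 345.2 FPKM, were more abundant than Rtn4 in every library and were not called.

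**Figure D5:**
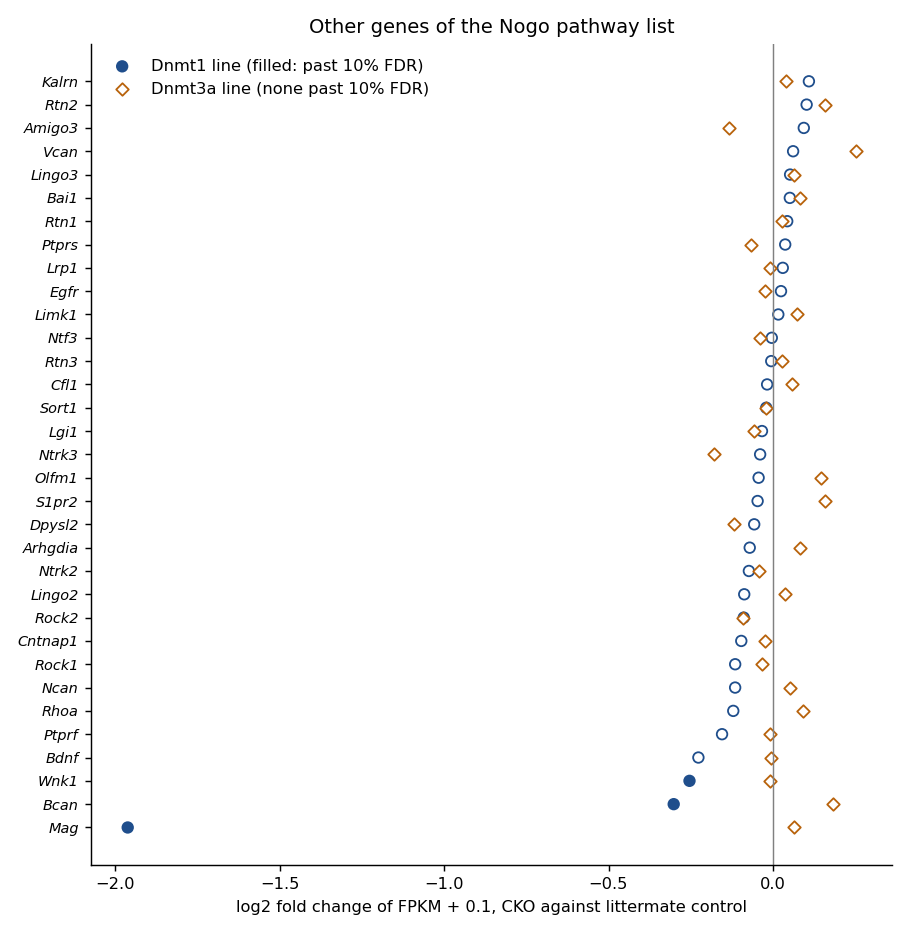
Log2 fold change of FPKM + 0.1 in CKO against littermate controls (horizontal axis) for tested genes of the pathway list, circles for the Dnmt1 line and diamonds for the Dnmt3a line. Filled circles are the 3 genes past 10% FDR, Mag at -1.96, Bcan at -0.30 and Wnk1 at -0.25, and most other points lie near 0.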

How the data were processed

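Libraries of polyA RNA from whole cortex of 12 mice were made with Illumina's TruSeq kit. TopHat served the authors for alignment, and they computed FPKM with Cufflinks, on mm10 per the labels, with versions not given in the sources used here, and deposited 1 FPKM value per row and library. Any further scaling between libraries is not stated. Columns were matched to mice by their labels, and 0 columns were left without a sample. Of 23850 deposited rows, 302 exact duplicates were removed.

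From these values, log2(FPKM + 0.1) was fitted for every row averaging 0.5 FPKM or more with limma 3.58.1 in R 4.3.3 (lmFit, eBayes with trend). Each CKO group was compared with its littermate controls, and the difference between the lines was fitted over all 12 libraries. P-values were two-sided and adjusted by Benjamini-Hochberg over all rows, at 10% FDR. A fold change on this scale understates the change of low genes. The procedure was tested on simulated data.

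The approximate depth came from the steps between low FPKM values of genes with 1 annotated transcript, of which 80.4 to 85.4% lay within 0.2 of a whole step, with annotated in place of effective lengths. Positions come from GENCODE M21 on GRCm38 (mm10), sequences from RefSeq. Python 3.11.15, numpy 2.4.6, pandas 2.3.3 and matplotlib 3.10.9 were used.

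The genes, the lists and the tests were chosen with earlier results of these data known. Named genes were the 8 genes, Mag and the called genes of the pathway list, the neighbours of Omg, the floxed genes and Olig1, and the called markers where 5 or fewer of a list were called. The rule also allowed the most abundant markers of each list. Some genes of the lists are not reported here. The cholinergic and striatal genes, other genes named with values, and the nearest profiles of genes that did not pass the test were added after the values were seen. Alternatives were other pseudocounts (1, 0.01), filters (0.1, 1 or none), variance models, scalings, summed rows, the replicate block, 1 model of all 12 libraries, an Xist covariate, 5% FDR and each library left out. For Mag, Wnk1, Bcan, Olig1, Dnmt3a and the lists, leaving out Dnmt3a Control 2 was added after seeing the data.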

Additional observations from a re-analysis of the deposited data

Results flagged for a closer look

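The effect of CKO differed between the lines by the interaction test in limma (10% FDR over all rows) for Mag, Wnk1, Bcan and Olig1, and for 0 of the 8 genes of the Nogo complex. Of all rows 2.13% were called by this test. As log2 change in the Dnmt1 line minus that in the Dnmt3a line, the differences were -2.02 for Mag, -0.24 for Wnk1, -0.48 for Bcan and -0.70 for Olig1. Without the library labelled Dnmt3a Control 2 they were -2.08, -0.26, -0.48 and -0.74, and all 4 were called. Among the marker lists the difference was also called, and lower, for 10 of 10 markers of myelinating oligodendrocytes, 4 of 8 of oligodendrocyte progenitors and 1 of 8 of astrocytes (Slc1a2), and for 0 markers of neurons, microglia, vessels and choroid plexus. Groups of 3 were not tested for outlying samples.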

How the results depend on the processing

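None of the 8 genes became called in any alternative fit, of which there were 20 in each line and 25 for the difference. Counted per gene, these gave 517 estimates, and those of 1 fit are not independent. The lowest adjusted p was 0.21, and 40 estimates over 12 results had the opposite sign. The fits at 5% FDR could not add a call. In the Dnmt3a line Lingo1 (0.10 to 0.18) and Rtn4rl1 (0.088 to 0.17) kept their sign in all 20 alternatives. Filters, variance models, summed rows, the replicate block, 1 model of all 12 libraries and 5% FDR left both estimates unchanged. Their sign could not turn in those fits. The rows called in the Dnmt1 line (444) were 263 at 5% FDR, 162 under the replicate block and 199 to 341 with a library left out (199, 206, 216 and 266 without Dnmt1 CKO 1, Control 2, CKO 3 and CKO 2). Those in the Dnmt3a line (2) were 17 without a filter, 2 to 5 with a library left out (4 without Control 1 or CKO 1, 5 without Control 3), and 1 with a pseudocount of 1, a minimum of 1 FPKM, quantile normalization, the replicate block, 1 model of 12 libraries, the Xist covariate or 5% FDR. The pathway list called 1 to 4 genes in the Dnmt1 line with a library left out (1 without Dnmt1 CKO 1 or CKO 3).

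Signs turned as follows. With median ratio scaling, Rtn4 was 0.020, -0.0019 and 0.022 (Dnmt1 line, Dnmt3a line, difference), and the difference was 0.012 for Rtn4r and 0.015 for Rtn4rl2. With quantile normalization, Rtn4rl1 was 0.0017 in the Dnmt1 line, Rtn4 -0.056 in the Dnmt3a line, and the differences were 0.040 for Rtn4, 0.028 for Rtn4r and 0.019 for Rtn4rl2. With the Xist covariate Rtn4 was 0.0019 in the Dnmt1 line. Without the library labelled Dnmt3a Control 2, an alternative for these genes chosen after seeing the data, Wnk1 was 0.0019 in the Dnmt3a line, and the difference between the lines for Dnmt3a itself went from 0.76 (adjusted p = 0.247) to 1.03 (adjusted p = 0.000333). With 1 library left out, the ranges were, in the Dnmt1 line, -0.026 to 0.015 for Rtn4, -0.049 to 0.050 for Lingo1, -0.098 to 0.010 for Tnfrsf19, -0.15 to 0.61 for Ngfr, in the Dnmt3a line, -0.031 to 0.038 for Rtn4, -0.053 to 0.043 for Omg, -0.37 to 0.24 for Ngfr, and for the difference, -0.042 to 0.028 for Rtn4, -0.058 to 0.70 for Ngfr, -0.079 to 0.061 for Rtn4rl2, -0.086 to 0.067 for Rtn4r. The causes were not tested. Same-numbered mice did not deviate together (correlations of -0.079 to 0.035), so the numbers were not used as pairs. The replicate block changed no call of the 8 genes. Ngfr has no value with a minimum of 1 FPKM. With 3 against 3, the change that would have reached the largest unadjusted p-value called in the line was taken as a limit. In the Dnmt1 line it was 0.15 (Omg) to 0.37 (Rtn4r) and 2.2 for Ngfr, and in the Dnmt3a line 0.55 (Lingo1) to 4.45 (Ngfr). Smaller changes might also have been called.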
